A study of Rattus norvegicus with 14 samples.

Results

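This account describes the genes through which nitric oxide relaxes the vessel wall, as measured in the rat thoracic aorta with and without renal failure. The genes were picked by name: Nos3, Ddah1, Ddah2, Gucy1a1, Gucy1b1, Gucy1a2, Prkg1, Irag1, Pde5a and Pde1a. Of these 10 genes, 9 were measured, by 11 of the 31042 probe sets tested (9 of 14217 named genes), and the array annotation used here gave 0 probe sets the symbol Prkg1. Where a gene had more than 1 probe set, the one with the highest mean over the 14 arrays stands for it. All animals were Sprague-Dawley rats. The A-CRF group (8 samples) had chronic renal failure induced with adenine, which injures the kidney through crystals in the tubules, and the Control group had 6 samples. The labels give no dose, duration, age or sex. Whether every array stands for its own animal is not stated, and the p-values therefore rest on a spread between arrays that may be technical. Each sample was hybridised to 1 one-colour oligonucleotide array.

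Nitric oxide is made from arginine in the endothelium by the synthase encoded by Nos3 and diffuses into smooth muscle. There it binds soluble guanylate cyclase, a heterodimer of an alpha subunit (Gucy1a1 or Gucy1a2) and the beta subunit Gucy1b1, which makes cyclic GMP. Cyclic GMP activates the protein kinase encoded by Prkg1, which lowers calcium release and the calcium sensitivity of contraction, partly through its substrate Irag1 on the sarcoplasmic reticulum. The phosphodiesterases Pde5a and Pde1a break cyclic GMP down. Ddah1 and Ddah2 are classed as enzymes that degrade methylarginines, which inhibit the synthase and accumulate when the kidney fails.

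Values are log2 probe set summaries, with the log base inferred from their range of 4.82 to 12.64. Correlations between arrays lay between 0.970 and 0.997. On A-CRF 1, A-CRF 4 and Control 1 the GAPDH 3' probe set exceeded the 5' one by 1.90, 1.63 and 1.58 log2 units, against 0.37 to 0.55 on the other arrays. Such a difference is a sign of degraded RNA or truncated labelled target. The difference in the group means of this measure did not pass an exact permutation test (two-sided, p = 0.88). The tissue label was checked with marker lists: all 10 measured smooth muscle markers and all 10 measured endothelial markers had a control mean more than 1 log2 unit above the lowest value of the table. All 12 macrophage and all 6 adventitial fibroblast markers did so too, so this check does not single out a cell type. The same held for 5 of the 9 members (55.6%), Gucy1a1, Gucy1b1, Irag1, Ddah1 and Ddah2, beside 57.1% of all genes. The control means of Nos3, Gucy1a2, Pde5a and Pde1a lay within 1 log2 unit of that value, where a change in transcript level is compressed or cannot be seen.

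Gucy1a1, the main alpha subunit of the nitric oxide receptor in vascular smooth muscle, fell in A-CRF aortas. Its level was 1.70-fold lower, and both of its probe sets passed the test. No other member passed, and the other 8 had differences from -0.20 to 0.01 log2 units. Over the 9 members the median difference was -0.08 log2 units, beside -0.0012 over all 14217 genes. By limma's test with Benjamini-Hochberg adjustment over all probe sets and a threshold of 0.05, 0 members were higher and 1 was lower, where 1.06% of all genes were lower, 1.93% were higher and 2.99% changed in either direction. Among genes whose control mean lay more than 1 log2 unit above the lowest value, 1.72% were lower and 4.3% changed. Over probe sets the shares were 0.789% lower, 1.26% higher and 2.05% in all. The members were chosen with earlier results of these data known, so the share of 1 in 9 is a description.

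**Figure D1:**
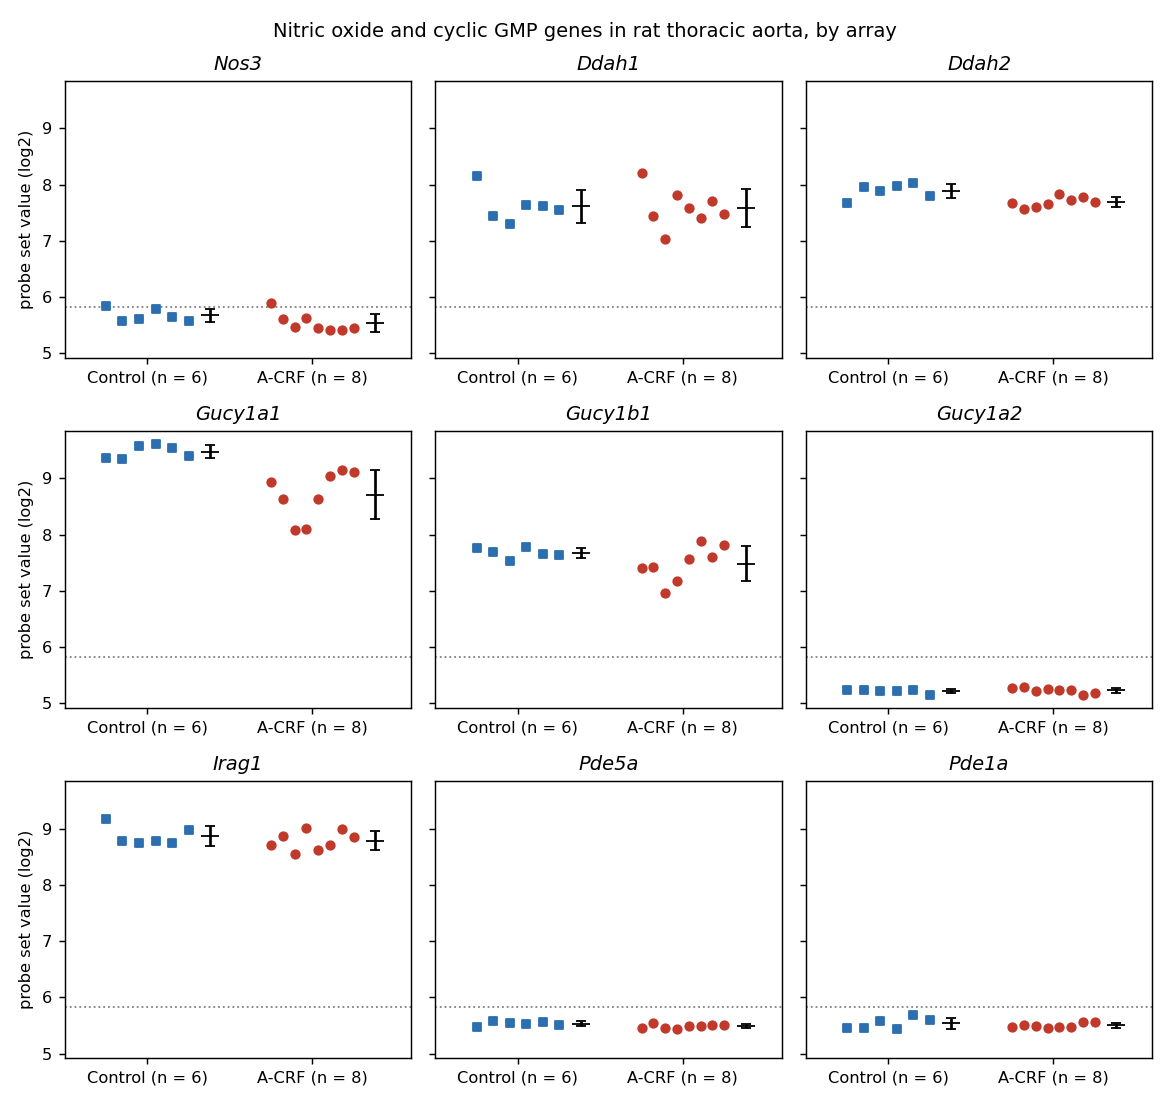
Probe set values (log2, y axis) of the 9 measured genes on each array, with Control as blue squares and A-CRF as red circles in replicate order. The black marks give the mean and SD of a group, and the dotted line at 5.82 lies 1 log2 unit above the lowest value of the table. Gucy1a1 is the gene whose groups do not overlap.

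Gucy1a1 was measured at 9.37, 9.35, 9.58, 9.62, 9.54 and 9.39 on Control 1 to 6. On A-CRF 1 to 8 it was at 8.94, 8.63, 8.09, 8.09, 8.63, 9.04, 9.15 and 9.12. Every A-CRF array lay below every control array, a separation in that direction found for 0.535% of all genes. A-CRF 3 and 4 were lowest and A-CRF 6, 7 and 8 came closest to the controls. A-CRF 4 was also an array with a large GAPDH difference. The A-CRF mean was 8.71 ± 0.43 (SD, n = 8), against 9.47 ± 0.12 (SD, n = 6) in Control. The difference was -0.76 ± 0.17 log2 units (SE, limma adjusted p = 0.034), with a 95% confidence interval from -1.13 to -0.40.

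The second probe set of Gucy1a1, which gave dimmer signals, showed the same order. It ranged from 5.67 to 5.99 in A-CRF (median 5.86) and from 6.03 to 6.23 in Control (median 6.11). These groups did not overlap either, which was the case, with A-CRF lower, for 0.438% of all probe sets. The difference was -0.27 ± 0.05 log2 units (SE, limma adjusted p = 0.020). The call of the first probe set did not hold without A-CRF 2, without A-CRF 5, or without any 1 of the 6 controls (highest adjusted p = 0.079), with the difference between -0.83 and -0.67 over the 14 such fits. Of the same 14 fits, the second probe set missed the threshold in 1, that without Control 5 (adjusted p = 0.051), and its difference ranged from -0.30 to -0.25.

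The beta subunit Gucy1b1 had a smaller difference. On Control 1 to 6 it was at 7.76, 7.69, 7.53, 7.79, 7.66 and 7.64, and on A-CRF 1 to 8 at 7.41, 7.42, 6.96, 7.19, 7.57, 7.89, 7.61 and 7.82. A-CRF 1 to 4 lay below all controls, A-CRF 5 and 7 within the control range, and A-CRF 6 and 8 above it. The difference of -0.19 ± 0.12 log2 units (SE) did not pass limma's test (adjusted p = 0.54, 95% confidence interval -0.46 to 0.07). A second probe set of Gucy1b1 gave -0.27 ± 0.10 (SE, adjusted p = 0.20, 95% confidence interval -0.49 to -0.06), with 5 of 8 A-CRF arrays below the control range of 7.18 to 7.44. Control values of both probe sets were tight, with SDs of 0.09, whereas the SDs in A-CRF were 0.31 and 0.25.

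The alternative alpha subunit Gucy1a2 gave 5.15 to 5.29 in A-CRF (median 5.25) and 5.15 to 5.24 in Control (median 5.23). The groups overlapped, and the difference was 0.01 ± 0.02 log2 units (SE, adjusted p = 0.92, 95% confidence interval -0.04 to 0.06). All of these values lay near the lowest of the table, so they do not show whether Gucy1a2 transcripts differed.

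To ask whether the subunits changed by unequal amounts, their within-array differences were compared between groups for 3 pairs. Gucy1a1 minus Gucy1b1 averaged 1.23 ± 0.22 on the A-CRF arrays (SD, n = 8) against 1.80 ± 0.16 on the controls (SD, n = 6). It was lower by 0.57 in A-CRF (-0.57; exact permutation test over 3003 assignments, two-sided, p = 6.7e-04, 0.0020 adjusted over 3 pairs). The highest A-CRF array, at 1.54, lay below the lowest control array, at 1.61. This held for the brightest probe set of each gene. The second probe sets differed between groups by the same -0.27 log2 units for both subunits, and with each gene's probe sets averaged the change of Gucy1a1 minus Gucy1b1 was -0.28 (exact permutation, adjusted p = 0.0030). The second probe set of Gucy1a1 had an A-CRF mean of 5.83, whereas that of Gucy1b1 had 7.03. The former lay next to 5.82, the bound below which a change is compressed or cannot be seen. The equal differences therefore do not show that the subunits changed equally. Probe sets can respond to the same change with different slopes, so the size of any unequal change is not settled by these values. Both pairs with Gucy1a2 were computed but are not read here, since its probe set lay too near the lowest value to register a change.

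**Figure D2:**
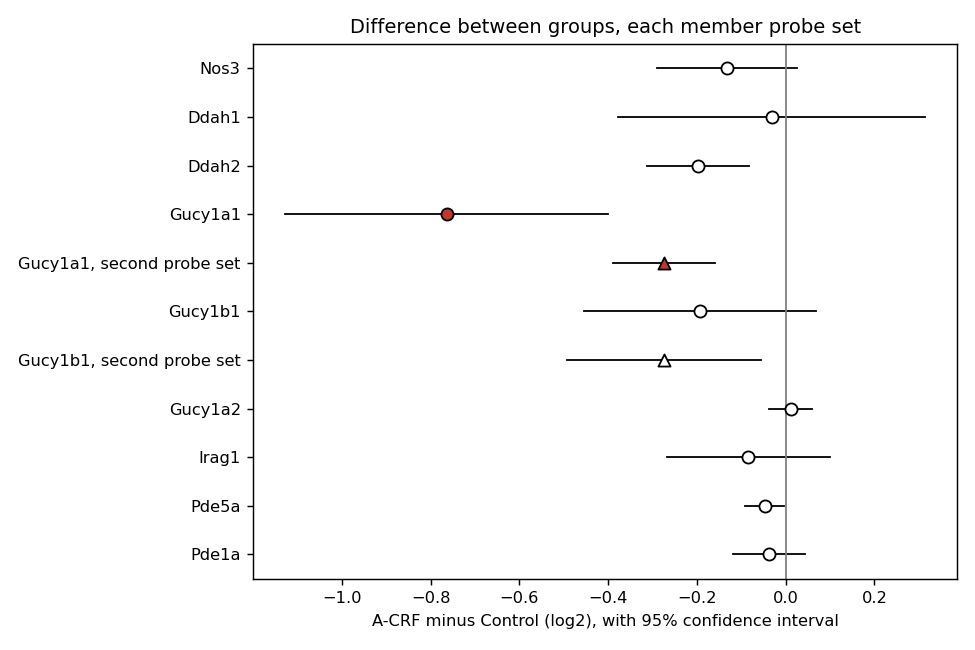
A-CRF minus Control (log2, x axis) for the 11 probe sets, with limma's 95% confidence interval as a line; circles are probe sets that stand for a gene, triangles second probe sets, and red marks an adjusted p under 0.05. Both Gucy1a1 probe sets are red, at -0.76 and -0.27. The intervals of Ddah2 (-0.31 to -0.08), the second Gucy1b1 probe set (-0.49 to -0.06) and Pde5a (-0.093 to -0.0028) exclude 0. Their limma adjusted p of 0.076, 0.20 and 0.30 did not pass.

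The arrays on which Gucy1a1 was low were largely those on which Gucy1b1 was low. Within A-CRF, Pearson's r between them was 0.87 (exact permutation p = 0.0084) and Spearman's rho 0.81 (exact permutation p = 0.022). Adjusted over the 24 relations of Gucy1a1 computed in the A-CRF and Control arrays, these became 0.11 and 0.46 and did not pass. Without A-CRF 3 and 6, the arrays farthest from the median of Gucy1b1, r was 0.82 over 6 arrays. In Control, where both genes varied little, r was -0.15 and rho -0.03 over 6 arrays (exact permutation p = 0.81 and 1). Of the other members, none had a relation with Gucy1a1 in A-CRF that passed.

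**Figure D3:**
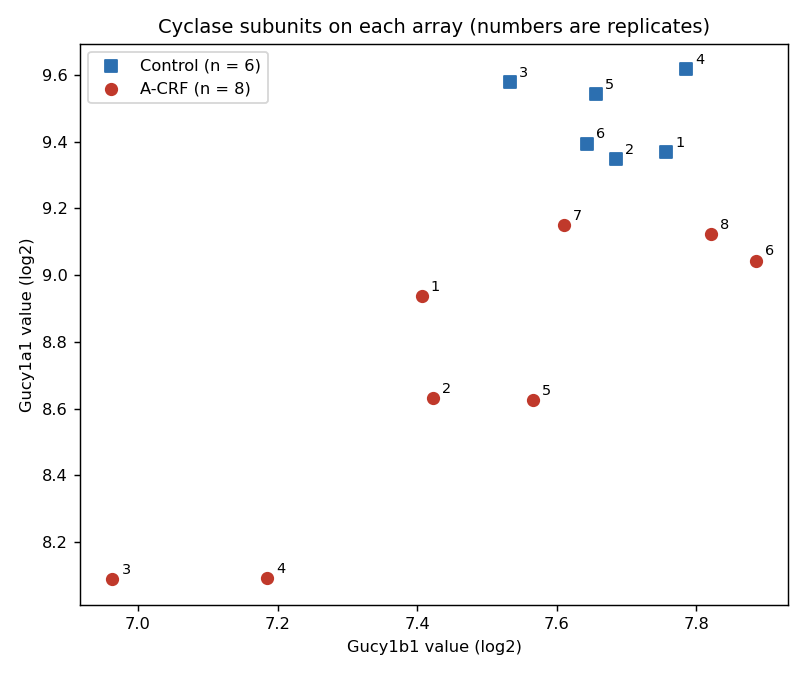
Gucy1b1 (log2, x axis) against Gucy1a1 (log2, y axis), 1 point per array, with Control as blue squares, A-CRF as red circles and the replicate number beside each point. A-CRF 3 and 4 are lowest for both subunits, and A-CRF 5, 6, 7 and 8 reach control levels of Gucy1b1 but not of Gucy1a1.

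Other measures also differed between A-CRF arrays. Within A-CRF, r between Gucy1a1 and the GAPDH difference was -0.25 and rho -0.50. Neither passed (exact permutation p = 0.51 and 0.22, adjusted 0.86 and 0.64). Without A-CRF 1 and 4, the arrays where that difference was large, r was -0.71, and in Control it was -0.48. The mean level of 12 macrophage markers was 7.23 to 7.66 in A-CRF and 6.88 to 7.05 in Control, and was highest on A-CRF 3 and 4, at 7.66 and 7.56. Within A-CRF, r between Gucy1a1 and this mean was -0.88 and rho -0.71 (exact permutation p = 0.0094 and 0.058, adjusted 0.11 and 0.46), and r was -0.48 without A-CRF 3 and 4, so that the relation rested on those arrays. In Control it was 0.18. Of these 12 markers 8 rose in A-CRF and 0 fell, beside 1.93% higher and 1.06% lower over all genes. Among the 8 were the lysozyme gene Lyz2 and the complement gene C1qa, at differences of 0.76 and 0.65 log2 units. C1qa passed in all 29 other fits, and Lyz2 missed the threshold in 4, those without Control 2 or 4, with the rank-sum test and with the smooth muscle covariate. Their part in the Gucy1a1 result was not tested. In whole tissue, fewer cells of a type and less RNA per cell cannot be told apart.

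Smooth muscle markers, from the cells that express the cyclase, had a mean level of 9.27 to 9.71 in A-CRF and 9.56 to 10.19 in Control. The highest array of each group, A-CRF 4 and Control 1, also had a large GAPDH difference. Of 10 markers 2 fell, Actg2 by 0.82 and the myosin heavy chain Myh11 by 0.29 log2 units, and 0 rose. Over all genes 1.06% were lower and 1.93% higher. The median difference over the list was -0.25, and 9 of the 10 differences were below 0, beside 51.2% over all genes. For 2 of the 10 every A-CRF array lay below every control array, beside 0.535% of all genes. A dimmer probe set of Myh11 had -0.24 (limma adjusted p = 0.53). Synpo2, named after its values were seen, had probe sets that disagreed. The one that stands for it had -0.0013 (mean 9.697, adjusted p = 0.99). Another, nearly as bright (9.694), had -0.58 (adjusted p = 0.024), and its groups did not overlap. The dimmer probe sets of Synpo2 had -0.30 (0.16) and 0.01 (0.98) and did not pass. The Myh11 call (adjusted p = 0.043) was lost in 10 of 14 fits without 1 array, all but those without A-CRF 4, 7 or 8 or Control 3, and in 9 of 15 alternatives. That of Actg2 (0.028) was lost without A-CRF 3, 5 or 8 or Control 2 or 3, and with the smooth muscle covariate (-0.37). That covariate is a score built from these 10 markers, Actg2 and Myh11 included. It removes part of their own difference and so cannot test their calls. Across A-CRF arrays Gucy1a1 did not follow this mean (r = -0.05, rho = -0.19, exact permutation p = 0.92 and 0.66, adjusted 0.96 and 0.80; r = -0.74 without A-CRF 3 and 4). With the smooth muscle score as a covariate, an alternative added after the data were seen, the difference of Gucy1a1 was -0.80 with an adjusted p of 0.093, and that of its second probe set -0.31 with 0.054. A score of 10 clock genes, with the signs of Cry1, Bmal1 and Npas2 reversed, was above 0 on A-CRF 6, 7 and 8, at 0.44, 0.65 and 0.82, and below 0 on A-CRF 1 to 5. Of the 10 genes Cry1 was lower in A-CRF (-0.86, limma adjusted p = 3.3e-05), Npas2 was higher (0.78, 0.041) and 8 did not pass. Within A-CRF, r between Gucy1a1 and this score was 0.68 and rho 0.71 (exact permutation p = 0.054 and 0.058, adjusted 0.43 and 0.46). It was r = 0.42 without A-CRF 7 and 8, and r = 0.59 in Control. With this score as a covariate the difference of Gucy1a1 was -0.64 (limma adjusted p = 0.049).

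The rat promoters of the 3 cyclase subunits are shown because Gucy1b1 and Gucy1a1, whose products form the heterodimer, are neighbouring protein-coding genes on chromosome 2 in RefSeq's annotation of assembly GRCr8, whereas Gucy1a2 lies on chromosome 8. The sequences are from RefSeq (GRCr8) and run from 250 bases before to 50 after the annotated start, on the gene's strand. Of the 10 genes 9 had an entry, all but Ddah2. Capitals mark matches on either strand. The motifs searched were the CCAAT box, the GC box spelled GGGCGG, the E-box of clock factors spelled CACGTG, the AP-1 site spelled TGANTCA, the cyclic AMP response element spelled TGACGTCA, the TATA box spelled TATAAA and the CArG box bound by serum response factor. The Gucy1a1 promoter is at chr2:169779574-169779873 (minus strand), that of Gucy1b1 at chr2:169696938-169697237 (minus strand) and that of Gucy1a2 at chr8:8784962-8785261 (plus strand).
Gucy1a1: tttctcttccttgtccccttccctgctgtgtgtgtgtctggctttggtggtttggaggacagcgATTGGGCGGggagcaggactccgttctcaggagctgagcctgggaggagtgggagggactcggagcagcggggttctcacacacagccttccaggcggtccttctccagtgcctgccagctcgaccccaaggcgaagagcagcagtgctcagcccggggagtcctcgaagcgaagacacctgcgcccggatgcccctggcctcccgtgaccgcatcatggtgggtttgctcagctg
Gucy1b1: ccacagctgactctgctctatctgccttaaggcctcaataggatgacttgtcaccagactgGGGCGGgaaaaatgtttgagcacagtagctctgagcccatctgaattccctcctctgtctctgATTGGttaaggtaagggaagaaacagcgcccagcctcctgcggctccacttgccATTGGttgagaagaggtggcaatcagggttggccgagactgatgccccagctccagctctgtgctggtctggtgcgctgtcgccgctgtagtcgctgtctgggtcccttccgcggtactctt
Gucy1a2: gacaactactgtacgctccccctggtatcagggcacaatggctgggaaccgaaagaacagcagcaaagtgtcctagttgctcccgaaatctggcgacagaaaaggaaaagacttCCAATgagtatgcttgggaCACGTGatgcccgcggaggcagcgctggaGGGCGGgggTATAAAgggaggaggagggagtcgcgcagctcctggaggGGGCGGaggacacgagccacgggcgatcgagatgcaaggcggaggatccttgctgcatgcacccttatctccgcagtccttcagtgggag
In Gucy1a1, a reversed CCAAT and a GC box overlapped by 2 bases, from position -186 to -178 relative to the start. Gucy1b1 held 2 reversed CCAAT matches, starting at -126 and -72, and a GC box at -189. CCAAT was found in 37.5% and GGGCGG in 33.1% of 33469 rat promoters of this length, so neither sets the pair apart. The Gucy1a2 window held the same motifs and also CACGTG, found in 6.42% of promoters, and TATAAA, found in 14.2%. None of the 3 windows held the AP-1 site, the cyclic AMP response element or the CArG box, which occurred in 7.33%, 1.83% and 1.64% of promoters.

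Nos3, the endothelial synthase, was measured close to the lowest values of the table. It ranged from 5.42 to 5.90 in A-CRF (median 5.46) and from 5.57 to 5.85 in Control (median 5.63), and 5 of 8 A-CRF arrays lay below all controls. The highest array of each group, A-CRF 1 at 5.90 and Control 1 at 5.85, was also an array with a large GAPDH difference. The group difference was -0.13 ± 0.07 log2 units (SE) and did not pass (limma adjusted p = 0.46, 95% confidence interval -0.29 to 0.03). Without the 3 arrays of largest GAPDH difference it was -0.17 (adjusted p = 0.067). Of 10 endothelial markers measured 0 passed, and their median difference was 0.01. Their mean level was 6.53 to 6.76 in A-CRF and 6.50 to 6.68 in Control. The largest differences among them were 0.40 for Vwf, the von Willebrand factor gene, and -0.20 for the growth factor receptor Kdr, with adjusted p of 0.18 and 0.40. Whether Nos3 followed these markers across arrays was not tested.

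Of the enzymes classed as degrading methylarginines, Ddah2 was the member closest to the threshold after Gucy1a1. It was at 7.68, 7.57, 7.61, 7.66, 7.83, 7.72, 7.78 and 7.69 on A-CRF 1 to 8 and at 7.68, 7.95, 7.89, 7.98, 8.03 and 7.80 on Control 1 to 6. All 8 A-CRF arrays were below the control median, and Control 1 was the control array that overlapped most with them. The difference was -0.20 ± 0.05 log2 units (SE, limma adjusted p = 0.076). It passed without Control 1 (-0.24, adjusted p = 0.030), without the 3 arrays of largest GAPDH difference (-0.23, 0.040), with array weights (-0.20, 0.041) and after quantile normalization (-0.20, 0.045). It did not pass in the other 25 fits (highest adjusted p = 0.23).

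Ddah1 varied more within groups than between them. Values were 7.03 to 8.20 in A-CRF (median 7.54) and 7.29 to 8.15 in Control (median 7.58), a difference of -0.03 ± 0.16 log2 units (SE, adjusted p = 0.97, 95% confidence interval -0.38 to 0.31). The 3 arrays with large GAPDH differences held the 3 highest values, 8.20 on A-CRF 1, 8.15 on Control 1 and 7.81 on A-CRF 4. The part of RNA or target quality in these values was not tested.

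Irag1, the kinase substrate that restrains calcium release, ranged from 8.55 to 9.004 in A-CRF (median 8.78) and from 8.74 to 9.17 in Control (median 8.79). The groups overlapped, at a difference of -0.08 ± 0.09 log2 units (SE, adjusted p = 0.77, 95% confidence interval -0.27 to 0.10). The phosphodiesterases lay near the lowest values. Pde5a, the target of sildenafil, was at 5.43 to 5.54 in A-CRF and 5.48 to 5.58 in Control, a difference of -0.05 ± 0.02 (SE, adjusted p = 0.30). Pde1a, which is activated by calcium and calmodulin, was at 5.45 to 5.57 and 5.44 to 5.69, a difference of -0.04 ± 0.04 (SE, adjusted p = 0.77). For both, the groups overlapped and the signal was too close to the lowest value to tell whether transcripts differed.

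Beyond the 10 members, 68 other genes of the pathway were listed by role, and 60 were measured. Of these 3 were lower, 0 were higher and 57 did not pass, beside 1.06% lower and 1.93% higher over all genes, and the median difference was -0.0084 log2 units. The one-sided direction of these calls depended on the setting. Among other pathway genes past the threshold, 2 were higher and 5 lower with dim probe sets left out, 2 and 3 with trend and robust options, 2 and 7 with array weights, 4 and 5 with the GAPDH covariate, and 1 and 0 with the smooth muscle covariate. Of the 60, 35 (58.3%) had a control mean more than 1 log2 unit above the lowest value, beside 57.1% of all genes.

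**Figure D4:**
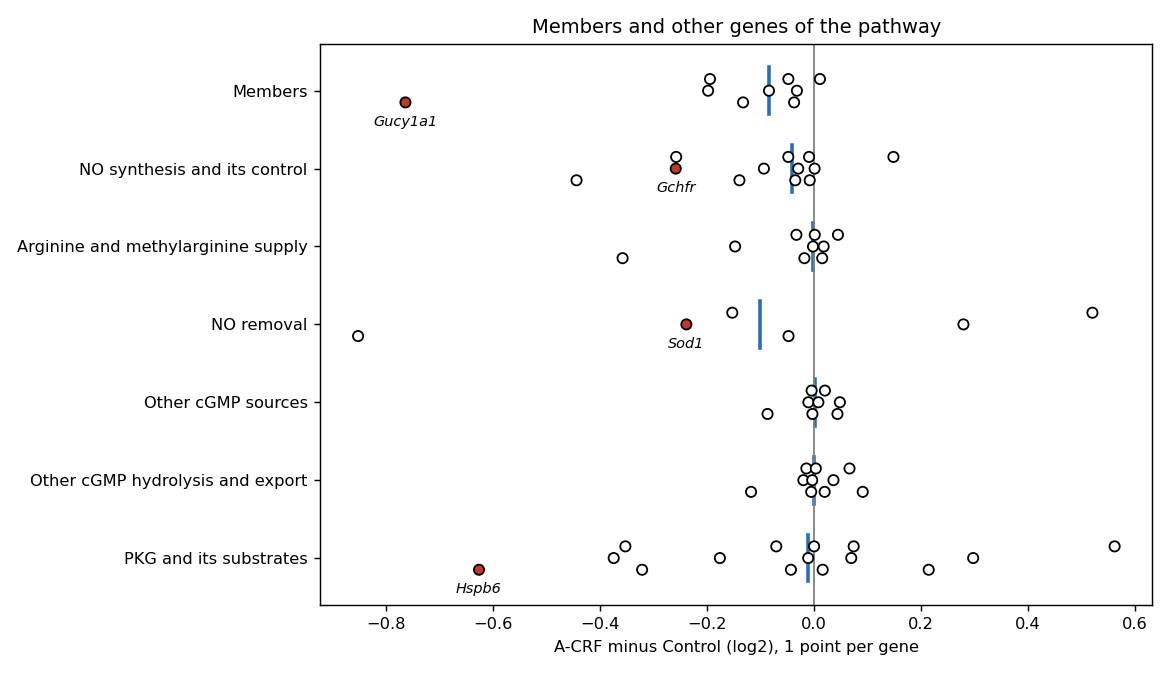
A-CRF minus Control (log2, x axis) for the 9 members and 60 other pathway genes by role, 1 point per gene, with red for an adjusted p under 0.05 and a blue bar at the median of each list. Gucy1a1, Gchfr, Sod1 and Hspb6 are the red points, all below 0 in this fit; other settings also called genes above 0, Sod3 and Pln among them.

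Among 12 genes of nitric oxide synthesis and its control, Gchfr fell. It encodes the feedback regulator of GTP cyclohydrolase, the first enzyme in the synthesis of tetrahydrobiopterin, the cofactor of the synthase. Gchfr averaged 5.83 ± 0.06 on 8 A-CRF arrays and 6.08 ± 0.15 on 6 controls (SD), a difference of -0.26 ± 0.055 log2 units (SE, limma adjusted p = 0.029), and its groups did not overlap (5.77 to 5.95 against 5.98 to 6.39). The A-CRF mean lay next to 5.82, the bound below which a change is compressed or cannot be seen. Leaving out any 1 of 5 arrays ended the call, namely arrays 3, 5 and 8 of A-CRF and 5 and 6 of Control (largest adjusted p 0.061 by limma), as did the clock or the smooth muscle covariate. The largest differences among genes that did not pass were -0.44 ± 0.15 (SE, adjusted p = 0.15) for the chaperone Hsp90ab1, which binds the synthase, and -0.26 ± 0.08 (adjusted p = 0.11) for Qdpr, which recycles tetrahydrobiopterin.

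None of 9 genes of arginine and methylarginine supply passed (median -0.0017), and 4 of them had a control mean more than 1 log2 unit above the lowest value. Arg1, an arginase that competes with the synthase for arginine, had the largest difference, -0.36 ± 0.09 log2 units (SE, adjusted p = 0.064), and the arginine-forming lyase Asl had -0.15 ± 0.045 (adjusted p = 0.11). Arg1 passed in 4 of 15 alternatives (lowest adjusted p = 0.033) and without A-CRF 7 (0.035), and Asl in 1, with array weights (0.046). The list of nitric oxide removal also held superoxide dismutases, which protect nitric oxide rather than remove it. Of its 6 genes, the cytosolic superoxide dismutase Sod1 fell by 0.24 ± 0.04 log2 units (SE, limma adjusted p = 0.015). The call was kept in all 14 fits that left out 1 array and lost with the rank-sum test and the smooth muscle covariate (largest adjusted p 0.087). The extracellular dismutase Sod3, which protects nitric oxide between endothelium and muscle, had a difference in the other direction of 0.52 ± 0.13 (SE, adjusted p = 0.054). Sod3 passed in 9 of 15 alternatives (adjusted p from 0.0013 to 0.19 over all 15) and in 1 of 14 fits without 1 array, that without Control 1 (0.62, adjusted p = 0.022). The beta globin gene Hbb, which marks blood in the tissue, had -0.85 ± 0.27 (SE, adjusted p = 0.12).

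Neither the 8 genes listed under other sources of cyclic GMP nor the 10 listed under its hydrolysis and export held a gene past the threshold. Not every gene of these lists makes, hydrolyses or exports cyclic GMP itself. The natriuretic peptide receptor Npr1, a membrane cyclase that makes cyclic GMP without nitric oxide, was at 7.002 to 7.39 in A-CRF and 6.85 to 7.62 in Control, a difference of -0.09 ± 0.10 log2 units (SE, adjusted p = 0.80). Npr3, the clearance receptor, had 0.05 ± 0.03, at values near the lowest of the table. Pde10a had -0.12 ± 0.05 and the export pump Abcc5 0.09 ± 0.05 (SE, adjusted p = 0.30 and 0.41).

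Among 15 genes of the kinase and its substrates 1 fell, the small heat shock protein gene Hspb6, whose product relaxes smooth muscle when phosphorylated. It averaged 7.28 ± 0.26 on 8 A-CRF arrays and 7.91 ± 0.26 on 6 controls (SD), a difference of -0.63 ± 0.13 log2 units (SE, limma adjusted p = 0.026), which missed the threshold without A-CRF 5 and without either Control 3 or 4 (largest adjusted p 0.055). Hspb6 also missed it with the rank-sum test and with the clock or smooth muscle covariate (largest adjusted p 0.14). Probe sets disagreed on the test for 2 genes. The brighter probe set of Pln, the calcium pump inhibitor, had 0.56 ± 0.15 (SE, adjusted p = 0.064) and another 0.76 ± 0.17 (adjusted p = 0.032); the first passed in 6 of 15 alternatives (adjusted p from 0.016 to 0.15) and without A-CRF 1 (0.66, adjusted p = 0.0082). Ppp1r12a, the targeting subunit of myosin phosphatase, named after its values were seen, had -0.35 ± 0.11 (SE, adjusted p = 0.14) at its brightest probe set, and 2 of its other 3 passed, at -0.48 and -0.42 (adjusted p = 0.023 and 0.031). Rgs2, a regulator of receptor signalling, had -0.37 ± 0.22 (SE, adjusted p = 0.51).

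The genes most like Gucy1a1 across the 14 arrays, after group means were removed, were ranked by Pearson's r among 9312 genes whose mean lay above the median of all probe sets, as a description. They were Arpp19, a phosphatase regulator (r = 0.92), Sar1b, a GTPase of vesicle transport (r = 0.90), and C12h12orf76 (r = 0.90), with Spearman's rho of 0.93, 0.81 and 0.82. C12h12orf76 fell by 0.16 ± 0.03 log2 units (SE, limma adjusted p = 0.026), a call lost without A-CRF 5 or Control 1, 4, 5 or 6 and with the clock or smooth muscle covariate (highest adjusted p = 0.092), while Arpp19 had -0.15 ± 0.06 and Sar1b 0.02 ± 0.05 (adjusted p = 0.25 and 0.95). For Nos3 they were Gabbr1 (r = 0.92), Gdpd5 (r = 0.91) and Mcat (r = 0.90), with rho of 0.79, 0.68 and 0.72, and differences of -0.21, -0.08 and -0.0081 that did not pass. The arrays A-CRF 1 and Control 1, where Nos3 was highest, had large GAPDH differences, and the part of RNA or target quality in this likeness was not tested.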

How the data were processed

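Per the labels' protocols, RNA of RNAlater-preserved aortas was purified on columns and labelled with biotin after oligo-dT priming for Affymetrix rat arrays. The authors deposited 1 value per probe set and array, used here as log2 probe set summaries; per the submitters' processing notes they were made with PLIER. How background was corrected, how arrays were normalized and whether an offset was added is not given in the sources used here.

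After 57 control probe sets were left out, 31042 were tested with limma 3.58.1 in R 4.3.3 (lmFit and eBayes, group as the only factor, 12 residual degrees of freedom, two-sided, Benjamini-Hochberg over all probe sets, threshold 0.05). The platform annotation named 20826 probe sets with 1 symbol, 436 with several and 9780 with none. RefSeq matched 20758 by Entrez identifier and changed 0 symbols. The number of arrays limits precision.

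The members and lists were chosen with earlier results of these data known. Named were all members, other pathway genes past the threshold and the 2 largest remaining differences per list, up to 2 genes per marker list, and the 3 genes most like Gucy1a1 and Nos3. Single values were tested by exact permutation. The fit and the rank-sum test were tested on simulated data. Alternatives were 16 added to the linear values, median centring, quantile normalization, a filter on dim probe sets (mean below percentile 40), trend and robust options, array weights and an exact rank-sum test. Others were averaging over each gene's probe sets, omitting those that match several transcripts, covariates (fat, clock, endothelial and smooth muscle scores, GAPDH difference), the 3 arrays of largest GAPDH difference left out, and each array left out in turn.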

Additional observations from a re-analysis of the deposited data

Results flagged for a closer look

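Within-group outliers were looked for in 86 groups of values (each member probe set and named gene, in A-CRF and Control) with Dixon's test at its 95% critical value, and 7 exceeded it; chance gives about 1 in 20. Among the members, Nos3 was at 5.90 on A-CRF 1, with the next array at 5.63, and A-CRF 1 also had the largest GAPDH 3' minus 5' difference. Gucy1a2 was at 5.15 on Control 6, below the next array at 5.22, a gap of little size near the lowest values of the table. Of the other genes, Gchfr was at 6.39 on Control 3 (next 6.10) and at 5.95 on A-CRF 2 (next 5.84). Sod3 was at 9.45 on Control 1 (next 8.97), Actg2 at 10.67 on Control 1 (next 9.89) and Abcc5 at 6.31 on A-CRF 3 (next 6.13).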

How the results depend on the processing

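The members past the threshold numbered 1 with all arrays, 2 with quantile normalization, with array weights or without the 3 arrays of largest GAPDH difference (Gucy1a1 and Ddah2 in each), and 0 with the smooth muscle covariate; it was 0 to 1 when single arrays were left out. Gucy1a1 passed in 14 of 15 such alternatives and in 6 of 14 fits without 1 array, and kept its direction in all of them. Its difference from Gucy1b1 passed in all 5 alternatives and 14 fits without 1 array in which it was computed (-0.61 to -0.28, the smallest with probe sets averaged).

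Likewise the other pathway genes past the threshold numbered 3 with all arrays, 7 with dim probe sets left out, 5 with trend and robust options, 9 with array weights, 1 with the rank-sum test, 7 when each gene's probe sets were averaged, 1 with the clock covariate, 9 with the GAPDH covariate, 6 without the 3 arrays, 1 with the smooth muscle covariate and 1 to 6 without single arrays. All probe sets past the threshold numbered 636 (391 higher, 245 lower), 1457 with array weights (755 and 702), 383 with the clock covariate, 1041 with the GAPDH covariate, 244 with the smooth muscle covariate and 307 to 979 without single arrays. The cause of these shifts was not tested.

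Signs turned for values that never passed: with the smooth muscle covariate Irag1 (0.092), Ddah1 (0.27), Npr1 (0.11), Lum (-0.0012) and Mcat (0.029); without single arrays Ddah1 (-0.12 to 0.076; 0.048 without A-CRF 3, 0.076 without Control 1), Gucy1a2 (-0.0018 without Control 6, up to 0.023) and Mcat (-0.024 to 0.0015; 1.7e-05 without A-CRF 5, 0.0015 without Control 1, 9.2e-04 without Control 4). No paired analysis was possible because the labels give the samples no numbers shared between groups. Signal near the lowest value limits Nos3, Gucy1a2, Pde5a, Pde1a and Npr3, and may limit the second probe set of Gucy1a1. A-CRF means near or below 5.82 may likewise limit Gchfr (5.83), C12h12orf76 (5.74), Arg1 (5.70) and Ckm (5.68).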

Other observations

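Markers of other cell types in the wall gave the following values. Of 6 measured adventitial fibroblast markers 0 passed, with a median difference of 0.06 log2 units and the largest for Lum (0.09 ± 0.07, SE) and Clec3b (0.08 ± 0.10). Of 7 white adipocyte markers 0 passed; their mean level was 6.98 to 8.52 in A-CRF and 7.61 to 8.56 in Control, and Pck1 (0.82 ± 0.54, SE) and Cidec (-0.49 ± 0.27) differed most. With the fat marker score as a covariate the difference of Gucy1a1 was -0.74 (limma adjusted p = 0.049). Of 5 skeletal muscle markers 1 fell, the creatine kinase gene Ckm (-0.41 ± 0.08, SE, limma adjusted p = 0.023), a call lost without Control 5, with the rank-sum test and with the smooth muscle covariate (highest adjusted p = 0.12). Acta1 of the same list, named after its values were seen, had 0.43 ± 0.19 (SE, adjusted p = 0.30), and 3 of the 5 had a control mean more than 1 log2 unit above the lowest value.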
